A study of Mus musculus with 14 samples.

Results

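The effect of ischemia over both genotypes was examined as 1 comparison: all 8 libraries from ischemic (MCAO) hemispheres against all 6 libraries from contralateral (CL) hemispheres, with genotype as an additive term. These 14 libraries are the whole series. Of 46904 genes in the expression table, 17476 had a mean of at least 0.5 RPKM (a read count scaled by the length of the gene model and by the depth of the library) and were tested, and these genes are the members described here. MCAO stands for transient occlusion of the left middle cerebral artery, the artery that supplies the striatum and the lateral cortex. The filament was left in place for 20 min and hemispheres were collected 48 h later. The libraries of polyadenylated RNA came from 3 MCAO (numbered 2 to 4) and 3 CL hemispheres of Cort+/+ mice, and from 5 MCAO and 3 CL hemispheres of mice with a constitutive deletion of Cort (Cort-/-), the gene of the neuropeptide cortistatin. All mice were 12-week-old males on a C57BL/6J background. The reference in every contrast was the opposite hemisphere of operated mice and not tissue of sham-operated animals. Whole hemispheres were used, so infarct, penumbra and spared tissue were mixed in each MCAO library, and fewer cells of a type cannot be told apart from less RNA per cell. Pooling the genotypes estimates 1 common change, assumed equal in both, and can resolve changes too small for 3 or 5 ischemic hemispheres. It does not show that a change is present in each genotype.

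An arrest of blood flow in the middle cerebral artery starves neurons of oxygen and glucose, and the striatum, which is fed by end arteries, is usually hit first. In the following days microglia proliferate and take up debris, astrocytes become reactive, interferon and chemokine genes are induced and blood-borne leukocytes can enter. Immune genes are expressed at low levels in healthy brain, so they can rise many-fold, whereas neuronal genes are abundant and are shared between injured and spared tissue.

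The deletion was checked first. Cort held 0, 1 and 0 reads in the CL and 0, 4, 1, 0 and 1 reads in the MCAO libraries of Cort-/- mice, against 64, 133 and 139 reads in the CL and 108, 93 and 81 reads in the MCAO libraries of Cort+/+ mice. Depth ran from 25989673 to 43032291 reads per library. Genes of the mitochondrial genome took 9.35% to 17.4% of summed RPKM in CL and 7.63% to 12.9% in MCAO libraries. Of the CL libraries, Cort+/+ replicate 1 and Cort-/- replicate 2 held the most reads of Tgm1, the gene with the largest rise in MCAO tissue (45 and 78 reads against 1 to 15 in the other 4 CL libraries), and they also held the most Gfap. Without both, 2602 genes were called in place of 2574.

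The ischemic hemisphere differed from the contralateral one in 2574 of 17476 genes (14.7%), by limma with Benjamini-Hochberg adjustment at 0.05. Of these, 1504 genes (8.61%) were higher and 1070 (6.12%) were lower in MCAO tissue. The filter favours rises, since 322 genes with a CL mean under 0.5 RPKM passed it only through their MCAO libraries. Of these 322 genes 157 were called higher and 0 lower. Among the other 17154 genes 1347 (7.85%) were higher and 1070 lower. The sizes given here cover all called genes. Most changes were moderate. A change under 2-fold was seen in 2256 called genes (12.9% of those tested), and 75.0% of calls were under 1.5-fold. Rises and falls had different sizes. The median called rise was 1.37-fold and the median called fall was 1.14-fold. Among the rises 519 were under 1.25-fold, 388 between 1.25- and 1.5-fold, 287 between 1.5- and 2-fold, 242 between 2- and 4-fold and 68 over 4-fold. Among the falls 896 were under 1.25-fold, 127 between 1.25- and 1.5-fold, 39 between 1.5- and 2-fold and 7 between 2- and 4-fold. The only fall listed over 4-fold belonged to Mir3084-2, a microRNA locus with 0 to 3 reads in any MCAO and 1 to 5 reads in any CL library, which was singled out after its values were seen. Its size is therefore not interpretable at this depth.

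**Figure D1:**
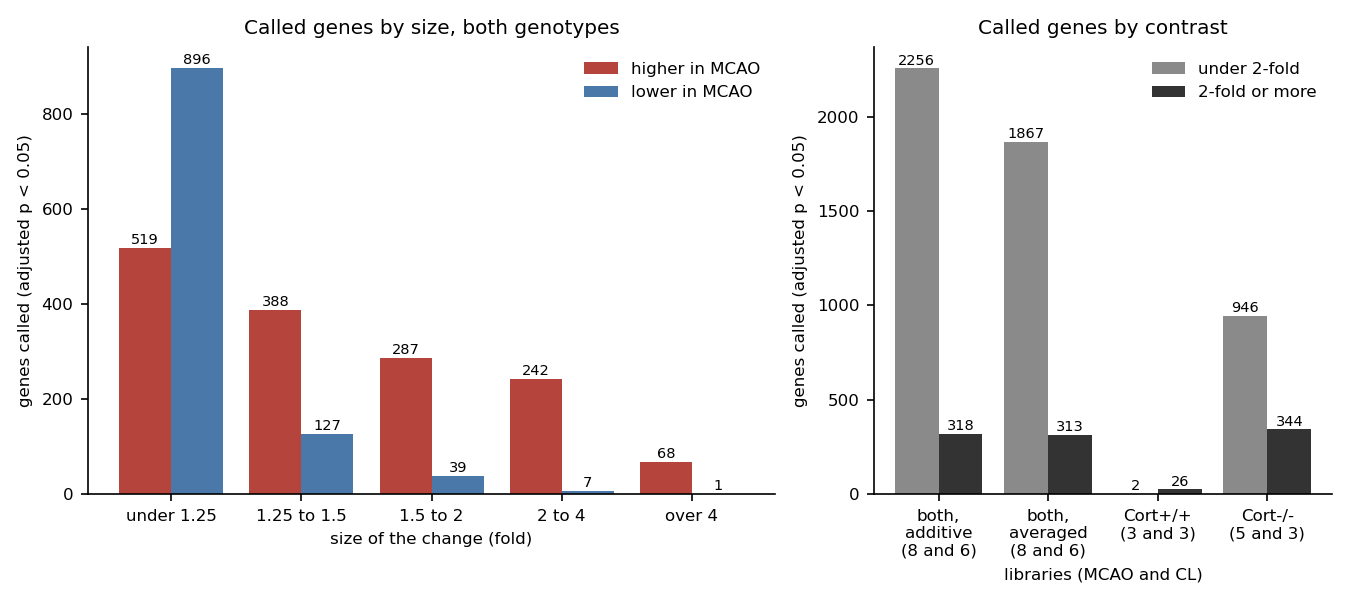
Left, number of genes called higher or lower in MCAO hemispheres over both genotypes (y axis), by size of the change in fold (x axis). Right, number of genes called under 2-fold and at 2-fold or more (y axis) over both genotypes in the additive model, and over both genotypes averaged, in Cort+/+ and in Cort-/- mice in a model of 4 groups (x axis, with the number of MCAO and CL libraries). Falls cluster under 1.25-fold (896 genes), whereas 310 rises exceed 2-fold. All called rises together include 157 genes with a CL mean under 0.5 RPKM, which passed the filter only through their MCAO libraries.

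The single genotypes were read from a model of 4 groups (genotype and hemisphere), which gave 28 calls for the 3 against 3 Cort+/+ hemispheres, 28 higher and 0 lower, and 1290 calls for the 5 against 3 Cort-/- hemispheres, 898 higher and 392 lower. With the changes of both genotypes averaged, the same model gave 2180 calls, 1348 higher and 832 lower, in place of the 2574 of the additive model. Under 2-fold were 2 calls in Cort+/+, 946 in Cort-/- and 1867 in the average. The count of genes at an unadjusted p under 0.05 was 2026 in Cort+/+, 4015 in Cort-/- and 4738 in the average. The median standard error of a log2 fold change was 0.11 in Cort+/+, 0.09 in Cort-/- and 0.07 in the average. These comparisons share their libraries and are not independent of each other. The smallest change called in the average was 0.08 on the log2 scale, against 0.64 in Cort+/+ and 0.11 in Cort-/- mice. The additive model is used from here on. The 95% interval of 2041 called genes lay wholly under 2-fold, and that of 128 called rises lay wholly over 2-fold. Of the 14902 genes that were not called, 10095 had an interval within 1.25-fold in either direction and 565 had one that reached 2-fold, so the data bound the change for most uncalled genes and leave it wide for few.

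What could be resolved depended on expression level. When tested genes were ranked by mean level and cut into 4 equal sets, the lowest set (0.50 to 1.87 RPKM) had a median standard error of 0.14 and a median called change of 0.74 on the log2 scale, with 438 rises and 74 falls. The highest set (16.0 RPKM and more) had a median standard error of 0.05 and a median called change of 0.19, with 349 rises and 533 falls. Replicates spread more in called rises than in called falls. The median SD of rises on the log2 scale was 0.20 among MCAO and 0.14 among CL hemispheres of a genotype. For genes that fell it was 0.08 in either hemisphere. Over all tested genes it was 0.12 among MCAO and 0.13 among CL hemispheres. The SD enters the test, and a small change can be called only where the SD is small, so these values partly reflect the calling. The split between rises and falls depends on scale. Rises were 58.4% of calls in RPKM, 77.8% after rescaling every library to the same sum (TPM) and 82.3% with limma voom on recovered reads, and the falls numbered 460 and 467 on those scales in place of 1070. Leaving out Cort-/- CL replicate 1 left 1636 calls, 1077 higher and 559 lower.

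Of the changes under 2-fold, the 8 rises and 8 falls with the smallest p-values are described among genes that were required to have no overlap between hemispheres, so their separation was set by that choice. Ranges below give the lowest, median and highest library. Sec61b, a subunit of the channel that carries new proteins into the endoplasmic reticulum, lay at 12.6, 13.5 and 13.8 RPKM in CL and at 16.0, 16.4 and 18.4 RPKM in MCAO hemispheres. This is a rise of 24.4% (log2 fold change 0.32 ± 0.04 (SE), adjusted p = 2.68e-04). Within genotypes its log2 fold change was 0.27 in Cort+/+ (adjusted p = 0.0822) and 0.35 in Cort-/- mice (adjusted p = 0.00341).

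Ppp4r4, a regulatory subunit of protein phosphatase 4, was the fall with the smallest p among moderate changes. Its level was 10.4, 10.8 and 11.1 RPKM in CL and 8.40, 8.72 and 9.19 RPKM in MCAO hemispheres, a decrease of 18.1% (log2 fold change -0.29 ± 0.03, adjusted p = 2.66e-04). The adjusted p was 0.0841 in Cort+/+ and 0.0032 in Cort-/- mice taken alone, at log2 fold changes of -0.24 and -0.32.

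The other 7 rises chosen by the same rule ran from 31.1% to 99.4%. Hbegf, a growth factor that acts on the epidermal growth factor receptor, rose from 3.64, 4.01 and 4.52 to 6.60, 8.27 and 11.6 RPKM, just under 2-fold (log2 fold change 1.0 ± 0.10, adjusted p = 1.37e-04). Rasal3, a Ras GTPase-activating protein of blood cells, rose from 0.639, 0.740 and 0.922 to 1.09, 1.6 and 1.88 RPKM (log2 fold change 0.95 ± 0.12). Both lie close to 2-fold. Cavin3, a coat protein of caveolae, rose by 43.4%, from 6.90, 7.33 and 8.09 to 9.57, 10.8 and 13.1 RPKM. Anxa5, encoding the phosphatidylserine-binding annexin A5, rose by 31.1%, from 22.4, 23.4 and 25.3 to 28.8, 30.5 and 36.5 RPKM. Ddah2 (0.55), the aminopeptidase gene Lap3 (0.43) and the carboxypeptidase inhibitor gene Lxn (0.39) completed the group on the log2 scale.

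The other 7 falls were mostly genes of synapses and signalling. Ppp1r9b, encoding spinophilin of dendritic spines, fell from 199.7, 210.1 and 224 to 160.0, 166 and 186 RPKM, a decrease of 20.2% (log2 fold change -0.33 ± 0.04, adjusted p = 3.46e-04). Lzts3, a postsynaptic scaffold gene, fell from 61.4, 64.3 and 68.1 to 45.5, 52.2 and 53.7 RPKM (log2 fold change -0.32 ± 0.04). Begain, a gene of the postsynaptic density, fell by 15.6%, from 36.4, 39.0 and 41.7 to 31.9, 32.7 and 34.9 RPKM. All 3 of these products act at synapses. Smpd3, encoding neutral sphingomyelinase 2, fell from 19.1, 20.4 and 21.2 to 13.8, 15.9 and 17.2 RPKM (log2 fold change -0.36 ± 0.05). Dusp8, a phosphatase gene of the MAP kinase pathway, fell by 15.2%, from 33.1, 35.1 and 36.4 to 28.2, 29.5 and 31.1 RPKM. Hlf, a transcription factor gene of the clock output, fell from 38.1, 40.2 and 44.4 to 28.5, 31.6 and 34.0 RPKM (log2 fold change -0.35 ± 0.05). Drd1, the D1 dopamine receptor gene, had the largest change of the group and is described with the striatal genes.

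**Figure D2:**
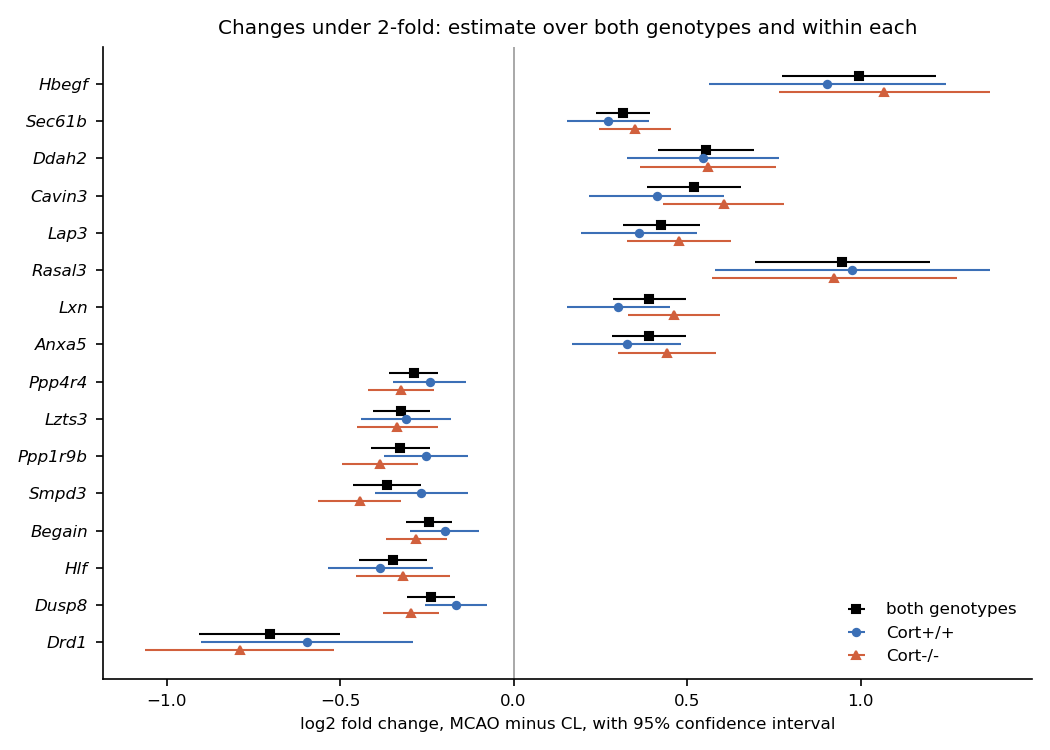
Log2 fold change, MCAO minus CL, with its 95% confidence interval (x axis) for the 8 rises and 8 falls under 2-fold with the smallest p among genes whose MCAO and CL libraries did not overlap, estimated over both genotypes (black squares), in Cort+/+ (blue circles) and in Cort-/- mice (orange triangles). The pooled interval is narrower than either single one. That all 3 estimates lie on one side of 0 for each gene was fixed by the choice of genes without overlap.

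The changes over 2-fold were led by genes of phagocytes, interferon signalling and reactive glia. In all, 937 genes (5.36%) had no overlap between MCAO and CL libraries, 651 of them higher and 286 lower. The 651 include genes, such as Tgm1, with a CL mean under 0.5 RPKM. Tgm1, encoding transglutaminase 1 (chromosome 14, 55937466 to 55951383 in GRCm39), had the largest rise by the naming rule. It lay at 0.00891, 0.135 and 0.780 RPKM in CL and 2.90, 5.89 and 12.5 RPKM in MCAO hemispheres, a log2 fold change of 4.42 ± 0.40 (adjusted p = 8.00e-05). As its CL level was near 0, the size of the change depended on the pseudocount and ran from 2.47 to 5.46 over the alternatives, and at a pseudocount of 1 RPKM the rise of Spp1 was larger. Lgals3, the galectin-3 gene of activated phagocytes, rose from 0.256, 0.499 and 1.7 to 3.64, 7.84 and 13.1 RPKM, 10.7-fold (log2 fold change 3.42 ± 0.36, and 2.35 to 3.97 over the alternatives). Spp1, encoding osteopontin, was already abundant and rose from 7.36, 9.85 and 12.7 to 22.4, 78.2 and 166 RPKM (log2 fold change 3.02 ± 0.39, and 2.80 to 3.35 over the alternatives). Ccl12, a monocyte-attracting chemokine gene, rose from 0.345, 0.441 and 1.12 to 1.68, 10.8 and 20.9 RPKM, and its lowest MCAO library was a Cort+/+ one. Lilrb4a, an inhibitory receptor of myeloid cells, rose by 3.28 and Msr1, the macrophage scavenger receptor, by 3.0 on the log2 scale (1.25 to 4.12 over the alternatives). Cxcl10 (3.07 ± 0.50) and Isg15 (3.01 ± 0.53), both interferon-induced, completed the 8 largest rises.

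The size of the response differed between ischemic hemispheres. Among the 651 genes that were higher without overlap, Cort+/+ MCAO replicate 4 was the lowest MCAO library for 422 (64.8%), and Cort-/- MCAO replicate 1 was the highest for 343 (52.7%) and replicate 4 for 200 (30.7%). Among the 286 that were lower without overlap, the same Cort+/+ replicate 4 was the highest MCAO library for 107 (37.4%) and Cort-/- replicate 1 the lowest for 151 (52.8%). Of the CL libraries, Cort-/- replicate 2 (212 genes, 32.6%) and Cort+/+ replicate 1 (169 genes, 26.0%) were most often the highest for genes that rose. Infarct volume was not analysed here.

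The largest falls were genes of striatal neurons and a few others. Cd4 (chromosome 6, 124841655 to 124874758 in GRCm39), known as the co-receptor of helper T cells, lay at 3.47, 3.71 and 4.51 RPKM in CL and 0.525, 1.40 and 2.82 RPKM in MCAO hemispheres, the largest fall by the naming rule (log2 fold change -1.40 ± 0.24, adjusted p = 0.00177). It is a member of both the T cell list and the striatal list below. The T cell receptor gene Cd3e was listed at 0 in 6 of 14 libraries and did not exceed 0.0917 RPKM in any. Trac and Trbc2, also T cell receptor genes, did pass the filter. Together with Cd4 they summed to 12.3 to 16.2 RPKM in CL and 10.4 to 16.1 RPKM in MCAO libraries. Which cells held the Cd4 RNA was not tested. Ptprv, a receptor-type phosphatase gene, fell from 1.36, 1.56 and 1.79 to 0.301, 0.649 and 0.873 RPKM (log2 fold change -1.19 ± 0.16). Sh3rf2 fell from 1.61, 1.88 and 2.13 to 0.487, 0.771 and 1.47 RPKM (log2 fold change -1.05 ± 0.19). Lrrc10b, Adora2a, Scn4b and Gpr6 were also among the 8 and belong to the striatal list. Falls of this size were rare, since no called fall had a 95% interval wholly beyond 2-fold.

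**Figure D3:**
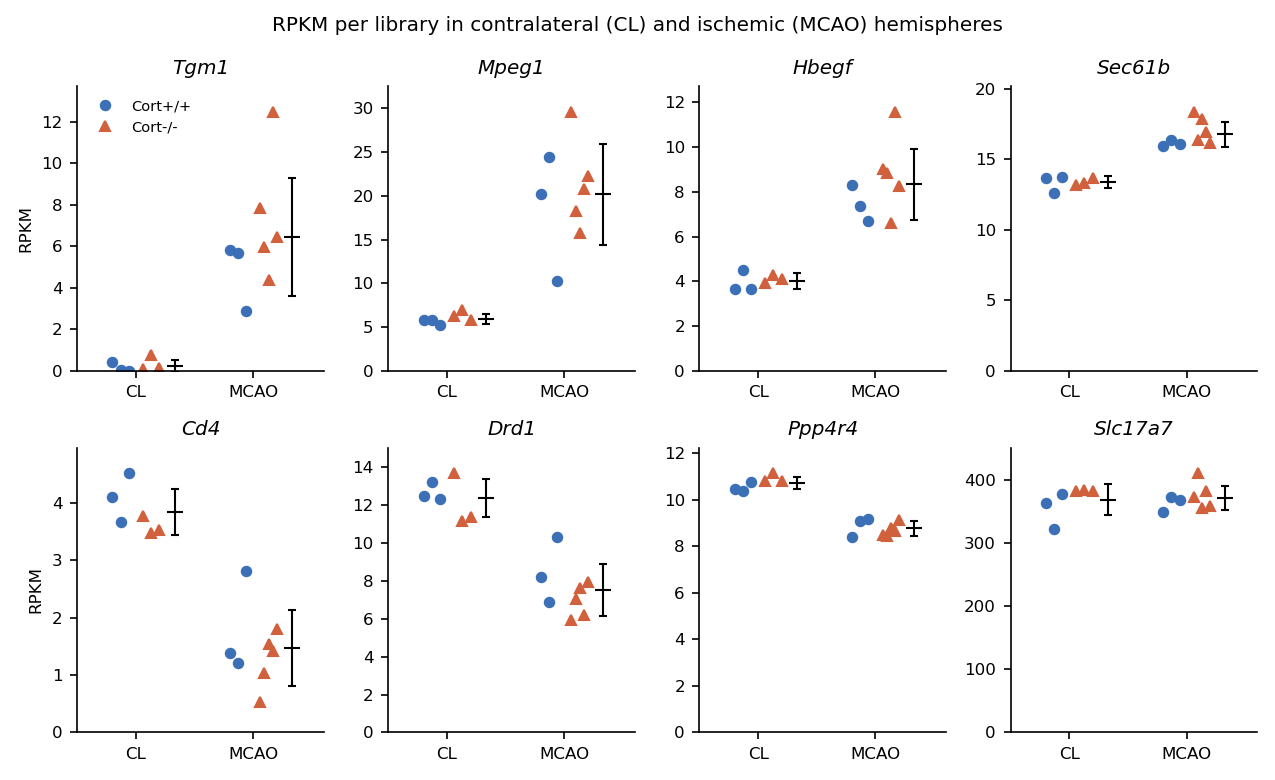
RPKM of 8 genes (y axes, from 0) in CL and MCAO hemispheres (x axis), 1 point per library, Cort+/+ as blue circles and Cort-/- as orange triangles, with the mean ± SD over all libraries of a hemisphere in black. Tgm1, Mpeg1, Hbegf and Sec61b rose and Cd4, Drd1 and Ppp4r4 fell without overlap, while the cortical gene Slc17a7 overlapped at 322 to 384 RPKM in CL and 349 to 409.8 RPKM in MCAO libraries.

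Gene lists of pathways and cell types show where calls gathered. The lists were written with earlier results of these data known, so their counts describe the members and do not test them. They are described by counts and medians beside the figures for all tested genes, which had 8.61% called higher, 6.12% called lower and a median log2 fold change of -0.02. A gene with a CL mean under 0.5 RPKM could pass the filter only through its MCAO libraries. There were 322 such genes, of which 157 were called higher and 0 lower, and counts of rises are given without them wherever a list held any. Interferon-stimulated genes, the antiviral programme driven by type I and type II interferon, had the highest share of rises: 44 of 46 tested (of 50 listed) rose and 0 fell, with a median of 1.44. Of the 36 with a CL mean of at least 0.5 RPKM, 34 rose, with a median of 1.29. Ifi204, a sensor of DNA, rose from 0.0584, 0.157 and 0.288 to 0.394, 2.50 and 3.95 RPKM (log2 fold change 2.83 ± 0.45, adjusted p = 0.00137). Gbp2 and Gbp3, guanylate-binding proteins that act against intracellular microbes, rose by 1.88 ± 0.29 and 2.00 ± 0.31. Gbp2 lay at 0.885, 1.03 and 1.28 RPKM in CL and 2.20, 4.55 and 7.68 RPKM in MCAO hemispheres. Psmb9, a subunit of the immunoproteasome, rose from 0.342, 0.504 and 0.823 to 0.884, 2.10 and 2.59 RPKM. The spread among MCAO libraries was wide. The lowest MCAO library of each of these 4 genes exceeded the highest CL library, but they were named for the smallest p, which favours such separation. Ifi204 had a CL mean under 0.5 RPKM and passed the filter only through its MCAO libraries.

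To show a sequence that such genes share, the promoters of Gbp2 and Gbp3 are given from RefSeq (build GRCm38.p6), from 250 bases before to 50 bases after a transcript start, with each match to the interferon-stimulated response element in capitals. The word searched was GAAANNGAA on either strand, and the capitals here read its reverse complement. Gbp2 lies on the plus strand at chr3:142620413-142620712, with the match starting 58 bases before the transcript start. Gbp3 lies on the plus strand at chr3:142559794-142560093, with overlapping matches starting 44 and 38 bases before it.
Gbp2: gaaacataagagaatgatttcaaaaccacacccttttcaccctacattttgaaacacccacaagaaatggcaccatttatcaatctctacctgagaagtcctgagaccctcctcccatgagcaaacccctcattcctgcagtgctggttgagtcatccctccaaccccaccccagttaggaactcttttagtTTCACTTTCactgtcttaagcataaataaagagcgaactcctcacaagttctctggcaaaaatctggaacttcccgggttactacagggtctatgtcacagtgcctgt
Gbp3: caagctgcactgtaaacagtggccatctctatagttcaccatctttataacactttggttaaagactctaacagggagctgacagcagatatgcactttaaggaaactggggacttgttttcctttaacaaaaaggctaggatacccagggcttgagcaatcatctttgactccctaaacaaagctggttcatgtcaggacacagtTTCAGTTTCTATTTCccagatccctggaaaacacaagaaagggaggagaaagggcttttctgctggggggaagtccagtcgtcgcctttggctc
The word was found in 20 of the 35 interferon-list genes that have a promoter entry, and in 8.36% of the 11184 tested genes with one. It was found in 13.7% of 1102 genes called higher and in 8.41% of 737 genes called lower. Fewer than 80% of the members of each of these sets have an entry, so a comparison of the sets is void and the shares describe the entries alone.

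Antigen presentation, complement and microglial genes also rose together. Of 25 antigen presentation genes tested (29 listed) 22 rose and 0 fell, with a median of 0.76. Cd74, the invariant chain of class II, rose from 1.44, 2.00 and 2.35 to 3.83, 4.73 and 9.49 RPKM (log2 fold change 1.39 ± 0.19). H2-Aa, a class II chain, rose by 1.01 and Ifi30, a thiol reductase of antigen processing, by 1.78. In the complement list 10 of 18 tested genes (24 listed) rose, 9 of them among the 16 with a CL mean of at least 0.5 RPKM, with a median of 0.69 in either case. C1qc, a chain of the initiator C1q, rose from 26.2, 32.7 and 43.2 to 46.7, 87.7 and 130.2 RPKM (log2 fold change 1.30 ± 0.20), C3ar1, the C3a receptor, by 2.06, and the complement receptor 3 chains Itgam and Itgb2 by 1.13 and 1.32.

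Microglial genes of the resting state had a lower median change than those of activation. Of 27 homeostatic microglia genes tested (28 listed) 16 rose and 0 fell, with a median of 0.51. Of 37 macrophage and activated microglia genes tested (42 listed) 33 rose and 0 fell, with a median of 1.35, and of the 31 with a CL mean of at least 0.5 RPKM 28 rose, with a median of 1.23. Among the defining markers Cx3cr1, the fractalkine receptor, rose from 8.28, 10.2 and 11.3 to 12.6, 15.8 and 19.8 RPKM and Tmem119 from 7.48, 9.12 and 9.79 to 10.3, 14.7 and 19.4 RPKM, both without overlap (log2 fold change 0.66 ± 0.10 and 0.68 ± 0.12). The purinergic receptor gene P2ry12 had 5.42, 7.94 and 10.1 RPKM in CL and 8.86, 9.81 and 10.5 RPKM in MCAO hemispheres and was not called (log2 fold change 0.34 ± 0.11, adjusted p = 0.0563), though it was called in TPM and with voom. Olfml3, another microglial gene, had the smallest p of the homeostatic list (1.48 ± 0.16, adjusted p = 1.94e-04). Trem2, a receptor for lipids and debris, rose by 1.20 and Aif1, the gene of Iba1, by 1.12. Mpeg1, encoding the pore-forming perforin-2 of phagocytes, rose from 5.22, 5.83 and 6.93 to 10.3, 20.5 and 29.6 RPKM (log2 fold change 1.66 ± 0.17). Cd68, a lysosomal glycoprotein of phagocytes, rose from 6.26, 7.04 and 11.7 to 16.3, 33.0 and 43.2 RPKM. Ctsd, the abundant lysosomal protease cathepsin D, rose from 144, 158 and 182 to 219, 371 and 464 RPKM (log2 fold change 1.09 ± 0.13).

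Of 17 chemokines and receptors tested (23 listed) 11 rose and 1 fell, with a median of 1.45, but 8 of the 11 had a CL mean under 0.5 RPKM. Of the other 9 genes 3 rose and 1 fell, with a median of 0.04. Cxcl16 rose from 0.408, 0.474 and 0.646 to 1.32, 2.44 and 3.5 RPKM (log2 fold change 2.00 ± 0.18, adjusted p = 8.00e-05). The macrophage inflammatory protein genes Ccl3 and Ccl4 rose by 2.83 ± 0.34 and 2.96 ± 0.38, from CL ranges of 0.151, 0.284 and 0.864 and 0, 0.279 and 0.421 RPKM. Cxcl14, a chemokine with high constitutive expression, fell slightly, from 38.6, 41.2 and 46.1 to 34.3, 37.6 and 39.8 RPKM with overlap (log2 fold change -0.14 ± 0.04, adjusted p = 0.0276), and this call was lost in TPM and with voom. Of 37 cytokine and NF-kappaB genes tested (45 listed) 21 rose and 0 fell, with a median of 0.45, and of the 34 with a CL mean of at least 0.5 RPKM 18 rose, with a median of 0.36. Clcf1, a cytokine of the interleukin-6 family, rose from 0.361, 0.538 and 0.814 to 2.07, 3.14 and 5.2 RPKM (2.30 ± 0.20, adjusted p = 7.97e-05). Tnfrsf12a, the TWEAK receptor, rose by 1.28, Tgfb1 by 1.06 and the transforming growth factor beta receptor gene Tgfbr2 by 0.60.

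**Figure D4:**
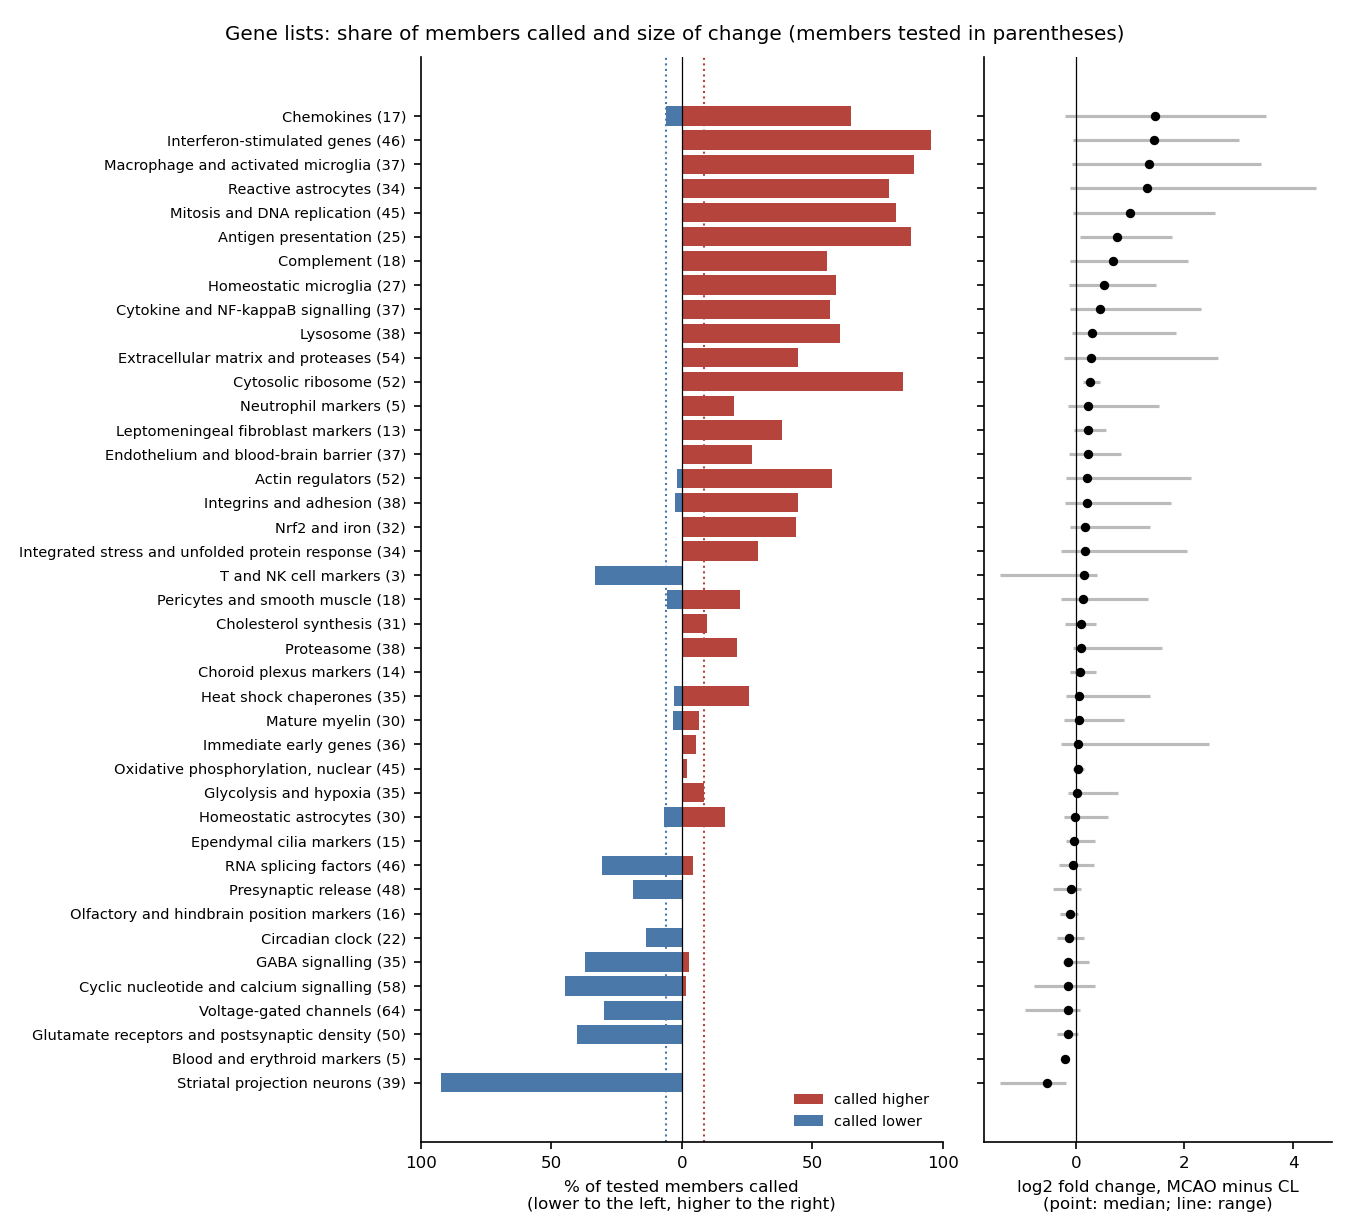
Left, percent of tested members called higher (red, to the right) or lower (blue, to the left) in each gene list, with the share over all tested genes as dotted lines (8.61% and 6.12%). Right, median (point) and range (line) of the log2 fold change, MCAO minus CL. Lists are ordered by median, from chemokines at 1.45, where 8 of 17 genes had a CL mean under 0.5 RPKM, to striatal projection neurons at -0.54.

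Reactive and homeostatic astrocyte genes parted. Of 34 reactive astrocyte genes tested (37 listed) 27 rose and 0 fell, with a median of 1.31, and of the 30 with a CL mean of at least 0.5 RPKM 23 rose, with a median of 1.15. Nes, the intermediate filament gene nestin, rose from 1.30, 1.66 and 1.89 to 4.24, 5.52 and 8.26 RPKM (log2 fold change 1.74 ± 0.15, adjusted p = 7.97e-05). Cd44, a hyaluronan receptor, rose from 0.616, 0.826 and 1.12 to 1.61, 3.15 and 5.14 RPKM. Gfap, the defining filament of astrocytes, rose from 37.9, 54.2 and 132 to 119.8, 271 and 361 RPKM (1.85 ± 0.32, adjusted p = 0.00192), and its groups overlapped because Cort+/+ CL replicate 1 held 132 RPKM and Cort+/+ MCAO replicate 4 held 119.8 RPKM. Of 30 homeostatic astrocyte genes 5 rose and 2 fell, with a median of -0.02 that was positive in TPM and with voom. The water channel gene Aqp4 rose without overlap, from 15.1, 17.4 and 18.7 to 19.1, 26.7 and 31.6 RPKM (0.59 ± 0.10). Atp1b2, Kcnj10 and Aldh1l1 rose by 0.22, 0.22 and 0.40. The glutamate transporter gene Slc1a2 fell from 239, 247 and 263 to 190.3, 224 and 239 RPKM (-0.18 ± 0.05, adjusted p = 0.0244), a call lost in TPM and with voom. The glypican gene Gpc5 fell by 13.8%. The second astrocytic glutamate transporter gene, Slc1a3, had 109, 119.9 and 129 RPKM in CL and 104, 110.1 and 129.9 RPKM in MCAO hemispheres and was not called (95% interval -0.21 to 0.01).

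Vessel, matrix and cytoskeletal genes rose moderately. Of 37 endothelial and barrier genes tested (39 listed) 10 rose and 0 fell, with a median of 0.22. The adhesion molecule Vcam1 rose from 4.12, 4.99 and 5.34 to 5.56, 6.71 and 7.77 RPKM (0.44 ± 0.07, adjusted p = 0.00172). Eng, a co-receptor of transforming growth factor beta, rose by 31.9%, and its log2 fold change was 0.20 in Cort+/+ and 0.56 in Cort-/- mice. Cldn5, the barrier claudin, rose with overlap, from 10.3, 15.2 and 16.8 to 15.4, 18.7 and 25.4 RPKM (0.45 ± 0.12, adjusted p = 0.0178), and Pecam1 was not called (0.33 ± 0.13, adjusted p = 0.0945). Of 18 pericyte and smooth muscle genes tested (22 listed) 4 rose and 1 fell, and 1 of the 4 had a CL mean under 0.5 RPKM. Tagln, an actin-binding protein of contractile cells, had the largest rise there, from 1.74, 2.21 and 2.92 to 3.99, 6.09 and 7.52 RPKM (1.33 ± 0.13, adjusted p = 9.54e-05), while Notch3 and Vtn rose by 0.38 and 0.22. The call of Vtn was kept in 12 of the 14 fits that left out 1 library.

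In the extracellular matrix and protease list 24 of 54 tested genes (60 listed) rose and 0 fell, 23 of them among the 53 with a CL mean of at least 0.5 RPKM. Plau, the urokinase gene, rose from 0.818, 0.897 and 1.0 to 1.59, 2.63 and 3.58 RPKM (1.36 ± 0.14) and its receptor Plaur by 1.56. Tnc, encoding tenascin C, rose from 0.479, 0.705 and 0.814 to 1.11, 2.39 and 3.43 RPKM. Among 38 integrin and adhesion genes tested (42 listed) 17 rose and 1 fell, 15 of the rises among the 36 with a CL mean of at least 0.5 RPKM. Itgb5 rose by 52.6%, and the fall of Actn1 (-0.16 ± 0.05, adjusted p = 0.0424) was lost in TPM and with voom. Of 52 actin regulators 30 rose and 1 fell, with a median of 0.21. Msn, encoding the membrane linker moesin, rose from 6.75, 7.04 and 9.64 to 11.9, 20.9 and 33.4 RPKM, and the leukocyte genes Lcp1 and Myo1f rose by 1.33 and 1.45. The scaffold Iqgap1 rose by 39.1% without overlap. Wasf1, the neuronal WAVE gene, fell by 11.5% (-0.18 ± 0.06, adjusted p = 0.0479), a call that was lost in TPM and with voom.

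Genes of mitosis and DNA replication rose in MCAO hemispheres. Of 45 tested (57 listed) 37 rose and 0 fell, with a median of 0.99, but 19 of the 45 had a CL mean under 0.5 RPKM and 18 of these rose. Of the other 26 genes 19 rose and 0 fell, with a median of 0.48. Among genes averaging 5 RPKM or more, 3 rose and the median was 0.27. Pbk, a mitotic kinase, had the smallest p-value of all named genes and rose from 0.128, 0.182 and 0.367 to 0.845, 1.56 and 2.60 RPKM (log2 fold change 2.44 ± 0.18, adjusted p = 3.42e-05). Mki67, the proliferation marker Ki-67, rose from 0.139, 0.191 and 0.392 to 0.819, 1.91 and 2.80 RPKM (2.57 ± 0.22). Top2a, topoisomerase II alpha, rose from 0.216, 0.260 and 0.605 to 1.14, 2.46 and 3.27 RPKM, and Rrm2, a subunit of ribonucleotide reductase, by 1.45 ± 0.15. For each of these 4 genes the lowest MCAO library exceeded the highest CL library, but they were named for the smallest p, which favours such separation. Pbk, Mki67 and Top2a were among those with a CL mean under 0.5 RPKM. The highest CL library was Cort-/- replicate 2 and the lowest MCAO library Cort+/+ replicate 4 for all 4.

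The promoters of Mki67 and Top2a are shown for the cell cycle words they hold, with capitals marking TTTGAA (the cell cycle homology region) and CCAAT on either strand. Mki67 lies on the minus strand at chr7:135716330-135716629 and Top2a on the minus strand at chr11:99024140-99024439 (GRCm38.p6), and both are printed in the direction of transcription. The Mki67 window holds 5 matches and the Top2a window 8.
Mki67: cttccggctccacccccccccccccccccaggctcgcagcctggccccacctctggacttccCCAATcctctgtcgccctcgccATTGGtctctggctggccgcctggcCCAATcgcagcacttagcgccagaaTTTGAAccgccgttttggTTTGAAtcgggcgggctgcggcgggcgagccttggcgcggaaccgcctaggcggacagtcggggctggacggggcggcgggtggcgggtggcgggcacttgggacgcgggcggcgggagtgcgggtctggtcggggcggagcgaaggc
Top2a: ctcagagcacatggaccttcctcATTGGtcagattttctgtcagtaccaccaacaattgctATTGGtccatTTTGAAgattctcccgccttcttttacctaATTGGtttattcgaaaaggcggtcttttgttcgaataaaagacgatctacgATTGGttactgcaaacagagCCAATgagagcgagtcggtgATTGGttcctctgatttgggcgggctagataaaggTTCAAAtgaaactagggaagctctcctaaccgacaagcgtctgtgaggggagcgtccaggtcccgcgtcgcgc
Of the 37 genes of this list with a promoter entry, 18 (48.6%) held TTTGAA and 27 (73.0%) held CCAAT. Of the 11184 tested genes with an entry 13.6% and 42.4% did. This background again lacks over 20% of its genes, so a comparison is void and the shares describe the entries alone.

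Genes for protein synthesis and turnover shifted by small steps. All 52 cytosolic ribosome genes were tested, 44 rose and 0 fell, and the changes ran from 0.13 to 0.45 with a median of 0.25. Rplp0, a stalk protein, rose from 102, 109 and 123 to 126, 153 and 193 RPKM (0.45 ± 0.09, adjusted p = 0.00369), Rpl12 by 31.2%, Rpl18 by 29.9% and Rpsa by 23.2%. Ribosomal protein genes have many near-identical pseudogenes, so their reads may be divided differently by another counting rule. Rises numbered 28 without Cort-/- CL replicate 3 and 29 without Cort-/- CL replicate 1. Of 38 lysosome genes tested (40 listed) 23 rose and 0 fell, with a median of 0.30. Gusb, beta-glucuronidase, rose from 3.26, 4.04 and 5.19 to 5.63, 9.89 and 12.1 RPKM (1.1 ± 0.16).

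Of 38 proteasome genes 8 rose, and 5 of these 8 encode inducible parts of the immunoproteasome and its activator: Psmb8 (1.58), Psmb9 (1.53), Psmb10, Psme1 (0.35) and Psme2 (0.45). The median of the list was 0.09, and 20 rose with voom, 16 without the 2 CL libraries richest in Tgm1 and 3 without Cort-/- CL replicate 1. Of 35 heat shock genes 9 rose and 1 fell. The small heat shock genes Hspb1 and Hspb6 rose from 3.30, 3.75 and 4.63 to 4.86, 9.99 and 26.9 RPKM and from 2.89, 4.18 and 5.5 to 5.75, 7.28 and 12.1 RPKM, Hspb8 rose by 0.56 and their partner Bag3 by 0.64 ± 0.09. Dnajb4 fell by 11.5%. The list had 4 rises without the 2 CL libraries richest in Tgm1, 15 with voom and 5 without Cort-/- CL replicate 1.

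Of 34 stress response genes tested (37 listed) 10 rose and 0 fell, with a median of 0.17, and 1 of the 10 had a CL mean under 0.5 RPKM. The transcription factor Atf3 rose from 0.224, 0.383 and 0.563 to 0.720, 2.08 and 3.65 RPKM (2.04 ± 0.30) and Nupr1, a stress-induced chromatin protein, by 0.91 ± 0.13. Sdf2l1, a chaperone of the endoplasmic reticulum, rose by 0.71. Of 32 antioxidant and iron genes tested (34 listed) 14 rose. Prdx1, peroxiredoxin 1, rose by 26.0% without overlap (0.33 ± 0.04), Ftl1, the ferritin light chain, from 176, 190.2 and 222 to 229.9, 313 and 412 RPKM and the pentose phosphate gene Taldo1 by 19.2%.

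Energy metabolism moved little. Of 45 nuclear oxidative phosphorylation genes tested (51 listed) 1 rose, Cox7c (0.09 ± 0.03, adjusted p = 0.0484), whose call was kept in 3 of the 14 fits that left out 1 library. The changes ran from -0.05 to 0.15, with 10 rises by voom. The transcripts of the mitochondrial genome gave 0 rises and 3 falls among 36 tested, and 12 of its 13 protein-coding genes had a negative estimate. Over all tested genes 6.12% were called lower and 42.5% had a positive estimate. Of 35 glycolysis and hypoxia genes tested (36 listed) 3 rose: Ldha, lactate dehydrogenase A, from 105, 110.4 and 117 to 119.9, 131 and 141 RPKM, the hexokinase Hk2 by 0.78 ± 0.13 and the lactate exporter Slc16a3. Of 31 cholesterol synthesis genes Fdps, Ebp and Mvk rose, by 22.6%, 30.0% and 10.7%, and 8 rose with voom. The calls of Fdps and Ebp were kept in all 14 fits that left out 1 library and that of Mvk in 3. Of 30 myelin genes 2 rose and 1 fell. The iron carrier Trf, made by oligodendrocytes, rose from 102, 109 and 137 to 158, 203 and 277 RPKM (0.90 ± 0.12, adjusted p = 6.03e-04). Gjb1 rose by 0.50, called in 8 of the 14 fits that left out 1 library, and Mobp, a structural myelin gene, fell by 10.6%, a call lost in TPM and with voom. The core myelin genes Mbp and Mog were not called, with 95% intervals of -0.25 to 0.00 for Mbp and -0.11 to 0.16 for Mog.

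Most listed striatal projection neuron genes fell. This list, which includes Cd4, was written with earlier results of these data known, so its counts are a description and not a test. Of 39 tested (40 listed) 36 fell and 0 rose, all 39 estimates were negative and the median was -0.54. Drd1, the receptor of the direct pathway (chromosome 13, 54204872 to 54209760 in GRCm39), fell from 11.2, 12.4 and 13.7 to 5.92, 7.34 and 10.3 RPKM (-0.70 ± 0.09, adjusted p = 6.03e-04). Drd2, the receptor of the indirect pathway, fell from 12.7, 15.4 and 16.9 to 5.67, 8.31 and 12.8 RPKM (-0.86 ± 0.16, adjusted p = 0.00273). The hemispheres were separated for Drd1, and overlapped for Drd2 because Cort+/+ MCAO replicate 4 (12.8 RPKM) exceeded Cort-/- CL replicate 2 (12.7 RPKM). Ppp1r1b, encoding the phosphatase regulator DARPP-32, fell from 117, 133 and 167 to 57.8, 82.1 and 114 RPKM (-0.72 ± 0.12). Adora2a, an adenosine receptor gene, fell from 15.9, 17.2 and 19.0 to 4.67, 8.27 and 15.8 RPKM (-1.0 ± 0.19). For all 4 genes the lowest library was Cort-/- MCAO replicate 1 and the highest MCAO library was Cort+/+ replicate 4. Lrrc10b (-1.09 ± 0.15), the sodium channel subunit Scn4b (-0.94 ± 0.14), the G protein subunit Gng7 (-0.57 ± 0.08) and the potassium channel subunit Kcnab1 (-0.43 ± 0.06) also fell. Slc17a7, the vesicular glutamate transporter gene of cortical neurons, was not called and had 322, 380.1 and 384 RPKM in CL and 349, 370.1 and 409.8 RPKM in MCAO hemispheres (95% interval -0.09 to 0.10). The general neuronal gene Rbfox3 was not called (-0.11 ± 0.04, adjusted p = 0.0972).

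Gpr6, a receptor of indirect pathway neurons, fell from 5.63, 5.74 and 6.16 to 2.01, 3.13 and 5.08 RPKM (-0.89 ± 0.16). Its promoter lies on the minus strand at chr10:41072241-41072540 (GRCm38.p6) and is printed in the direction of transcription. It is an example, from called genes of the 6 neuronal lists, of a promoter that holds the cyclic AMP response element TGACGTCA. The element is in capitals and starts 78 bases before the transcript start. Only 204 of the 286 genes of these lists have a promoter entry, and other called genes may hold the word.
Gpr6: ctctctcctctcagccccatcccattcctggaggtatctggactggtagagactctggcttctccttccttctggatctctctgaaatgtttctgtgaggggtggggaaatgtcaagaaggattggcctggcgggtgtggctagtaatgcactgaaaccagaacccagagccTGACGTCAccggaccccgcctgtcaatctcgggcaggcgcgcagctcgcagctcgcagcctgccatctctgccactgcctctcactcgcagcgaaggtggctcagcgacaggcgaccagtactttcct
The word was found in 5 of 204 neuronal list genes with an entry (2.45%) and in 3.43% of the 11184 tested genes with one. Entries are missing for many genes of both sets, so a comparison is void and the shares describe the entries alone. Whether the element has a part in the falls of neuronal genes was not tested.

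Synaptic and excitability genes fell by small steps. Of 50 glutamate receptor and postsynaptic genes 20 fell and 0 rose, with a median of -0.15. Nrgn, encoding the calmodulin-binding neurogranin, fell from 562, 607 and 697 to 439, 487 and 532 RPKM (-0.33 ± 0.06), the AMPA receptor subunit Gria3 by 14.8% and the kinase Camk2a by 16.1%, each without overlap, and the scaffold Dlgap3 by 15.9% with overlap. Of 35 GABA genes 13 fell and 1 rose, with a median of -0.14. Gabrg3, a subunit of the GABA-A receptor, fell by 15.3%, and the transporter Slc6a13 rose by 18.9% (adjusted p = 0.044) and is also a leptomeningeal marker, with its call kept in 2 of the 14 fits that left out 1 library. Of 64 voltage-gated channel genes 19 fell and 0 rose, with a median of -0.15. Kcnk2 fell from 14.1, 14.9 and 15.7 to 11.5, 12.3 and 13.6 RPKM and Kcnq3, a subunit of the M-current, from 21.1, 22.4 and 24.3 to 16.0, 19.0 and 19.9 RPKM.

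Of 48 presynaptic genes tested (49 listed) 9 fell and 0 rose, with a median of -0.10. The complexin Cplx2 fell from 258, 266 and 288 to 200.0, 224 and 245 RPKM (-0.26 ± 0.04), Rims2, a gene of the active zone, by 13.5%, and Snap25, a defining neuronal gene, from 885, 937 and 1213 to 744, 788 and 940.5 RPKM with overlap (-0.26 ± 0.07, adjusted p = 0.0213). Of 58 cyclic nucleotide and calcium genes 26 fell and 1 rose. Hpca, encoding the calcium sensor hippocalcin, fell from 171, 201 and 233 to 129, 142 and 170.2 RPKM (-0.46 ± 0.06), and the calcineurin subunits Ppp3ca and Ppp3r1 fell by 23.5% and 19.9%. The phospholipase Plcb3 rose by 27.7%. The counts of falls depend on scale and on single libraries. In TPM they were 13 for glutamate, 6 for GABA, 11 for voltage-gated, 4 for presynaptic and 18 for cyclic nucleotide genes, with voom 15, 5, 12, 3 and 20, and without Cort-/- CL replicate 1 they were 16, 6, 10, 2 and 17. Without Cort-/- CL replicate 3 they were 16, 7, 12, 5 and 20. The striatal list had 36, 36, 33 and 33 falls in those 4 settings.

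Lists of immediate early and clock genes held few calls. Of 36 immediate early genes 2 rose, Atf3 (above) and Fosl1, both with a CL mean under 0.5 RPKM. Of 22 clock genes tested (23 listed) 3 fell, Hlf, Npas2 (-0.29 ± 0.06) and Tef (-0.17 ± 0.05, adjusted p = 0.0486), and the call of Tef was lost in TPM and with voom. Of 46 splicing factor genes 14 fell (30.4%) and 2 rose, with 7 falls in TPM, 6 with voom and 6 without Cort-/- CL replicate 1. Those that fell include the neuron-enriched RNA-binding proteins Rbfox1, from 43.0, 44.5 and 49.5 to 32.4, 36.7 and 40.4 RPKM (-0.30 ± 0.06), Celf2 (-0.26 ± 0.04) and Celf4 (-0.19 ± 0.04). Hnrnpf and Ptbp1, the latter a repressor of neuronal exons, rose by 26.6% and 24.3%, and the call of Ptbp1 was kept in 10 of the 14 fits that left out 1 library.

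Markers of other cell types set limits on what a hemisphere contained. Of 13 neutrophil markers 5 were tested and 1 rose, Csf3r (0.54 ± 0.09), a receptor that microglia also express. The calprotectin genes had 0.773, 1.15 and 2.69 RPKM in CL and 1.01, 1.39 and 5.22 RPKM in MCAO hemispheres for S100a8, and 1.27, 2.61 and 5.65 and 0.799, 2.64 and 8.26 RPKM for S100a9, neither called (95% intervals -0.49 to 0.94 and -0.84 to 0.56). The sum of the 5 tested neutrophil genes ran from 5.79 to 15 RPKM in CL and from 8.08 to 48.6 RPKM in MCAO libraries. Cort-/- MCAO replicate 4 was the highest, and most of its sum was Lcn2, a gene that reactive astrocytes also express. Of 16 T, B and NK cell markers 3 passed the filter (Cd4, Trac and Trbc2, with 0 rises and 1 fall), with sums of 12.3 to 16.2 RPKM in CL and 10.4 to 16.1 RPKM in MCAO libraries, and 13 did not, among them Cd3e and the B cell gene Ms4a1. Blood (5 tested of 7), choroid plexus (14 tested of 14), ependymal (15 of 20) and olfactory or hindbrain markers (16 of 26) had 0 calls in either direction by limma and by voom, where 0, 1, 2 and 5 of them had an unadjusted p under 0.05, with 95% intervals of -0.71 to 0.37 for Hbb-bs, -0.25 to 0.30 for Ttr and -0.21 to 0.14 for Foxj1. The summed RPKM of the tested markers in CL and MCAO libraries was 91.0 to 329.6 and 87.4 to 257 for blood, 386 to 606 and 412 to 635 for choroid plexus, 33.4 to 44.7 and 35.9 to 45.7 for ependyma and 230.1 to 263 and 218 to 240.3 for olfactory or hindbrain tissue. Of the 16 olfactory or hindbrain markers 2 had a positive estimate, against 42.5% of all tested genes, and their median log2 fold change was -0.115. Without the 2 CL libraries richest in Tgm1, 2 olfactory or hindbrain markers were called lower. Of 13 leptomeningeal fibroblast markers 5 rose and 0 fell, and their sum ran from 649 to 1014 RPKM in CL and from 671 to 946 RPKM in MCAO libraries, led by Ptgds, which was not called (-0.03 ± 0.11). Ptgds and Lcn2 were singled out after their values were seen. Dcn, encoding decorin, rose from 6.78, 7.51 and 8.03 to 8.66, 11 and 13.1 RPKM (0.55 ± 0.08), Islr by 0.23, Aldh1a2 by 0.56 and Col1a1 by 0.52, and their part in the matrix results was not tested.

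Whether the change in the ischemic hemisphere differed between genotypes was tested as an interaction. At an adjusted p of 0.05, 0 of 17476 genes (0%) were called by limma, while an unadjusted p under 0.05 was reached by 273 genes (1.56%). The median standard error of the difference was 0.14 on the log2 scale, 2.05 times that of the pooled effect, and the 95% interval lay within 2-fold for 86.5% of genes. For genes with large rises the interval was wide. The difference, Cort-/- minus Cort+/+, was 1.08 ± 1.06 for Ccl12 (95% interval -1.21 to 3.36), 1.15 ± 1.05 for Isg15 (-1.13 to 3.43) and 0.58 ± 0.79 for Spp1 (-1.13 to 2.29). For Pbk and Mki67 it was 0.09 ± 0.37 and 0.01 ± 0.45, and for Drd1 -0.19 ± 0.19. These values do not show that the genotypes respond alike, and the additive estimate averages over them with more weight on Cort-/- mice, which supplied 5 of 8 MCAO libraries.

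Genes called lower were longer than genes called higher. The median length of the annotated gene was 37.0 kb for genes called lower, 17.7 kb for genes called higher and 21.3 kb for all tested genes, with 96.1% or more of each set matched to GENCODE vM39. Among genes under 10 kb, 9.10% were higher and 3.80% lower. Among the 530 genes over 300 kb, 1.7% were higher and 21.3% lower, and the median log2 fold change moved from 0.00 to -0.10 between these classes. Length is not independent of cell type here: Rbfox1, Nrxn3 and other neuronal genes are among the longest in the genome, and their part in this pattern was not tested. Protein-coding genes made up 95.9% of rises and 90.2% of falls, against 82.5% of tested genes.

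**Figure D5:**
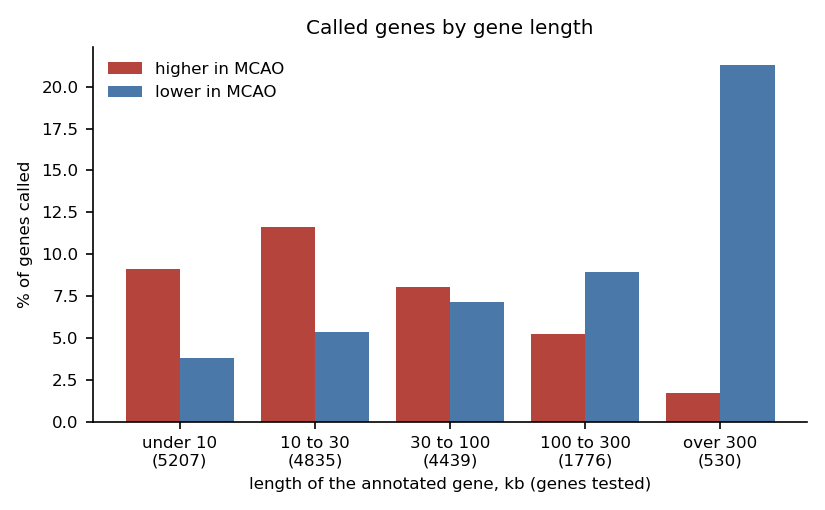
Percent of tested genes called higher (red) or lower (blue) in MCAO hemispheres (y axis) by length of the annotated gene in kb (x axis, number of genes in parentheses). The share called lower runs from 3.80% under 10 kb to 21.3% over 300 kb.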

How the data were processed

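RNA-seq of 14 hemispheres was analysed from 1 table of RPKM values that the authors deposited, mapped to GRCm39 per the submitters' processing notes. The authors aligned and quantified reads with the reanalyzerGSE pipeline and an earlier GENCODE release. The aligner and counter within it are not given in the sources used here. All values equal whole reads within 0.001 reads, and depth was recovered from them. RPKM values do not sum to the same total in every library, so scale can shift all genes. Values were taken as log2(RPKM + 0.1), and fold changes on this scale understate the change of low genes. Genes averaging 0.5 RPKM or more over the libraries entered limma 3.58.1 (R 4.3.3; additive model of genotype and hemisphere, moderated variances with a mean trend, 2-sided, Benjamini-Hochberg adjustment over all tested genes, called under 0.05). Single-genotype effects and the interaction came from a model of 4 groups. The script was tested on simulated data. Replicates are independent biological ones per the labels, which do not say which libraries share a mouse. The protocol lists 5 MCAO replicates, of which Cort+/+ replicates 2 to 4 were analysed here. Per the methods, replicates that did not group with the rest could be left out of a comparison, so the spread between replicates may be understated.

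Genes were named by rule: symbols that are not predicted names, averaging 1 RPKM or more and, for the first 2 groups, no overlap between hemispheres. The groups were the 8 largest called rises and falls, the 8 rises and 8 falls under 2-fold with the smallest p, and per list up to 4 called members in its main and 2 in the other direction, with defining markers of other cell types. The members and lists were chosen with earlier results of these data known. Promoters are from RefSeq (GRCm38.p6), and gene lengths and coordinates from GENCODE vM39 (GRCm39). Alternatives covered pseudocount, filter, scaling, model terms, variance settings and each library left out. Limma voom on recovered reads, separate variances per hemisphere, a random replicate block and the removal of 2 CL libraries were chosen after seeing the data. Some genes that this rule selects are not reported here.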

Additional observations from a re-analysis of the deposited data

Results flagged for a closer look

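Dixon's test for 1 library far from the rest of its hemisphere was run on 175 named genes in 2 hemispheres (350 groups, 6 CL or 8 MCAO libraries each), and 19 passed the 95% value, where chance gives about 1 in 20. The value is the gap to the nearest library over the whole range. Among CL libraries, Cort+/+ replicate 1 was highest for Isg15 (0.842) and Mobp (0.773) and lowest for Olfml3 (0.691), Cort+/+ replicate 2 was highest for Trf (0.707) and lowest for Mvk (0.798) and Slc17a7 (0.675), and Cort+/+ replicate 3 was highest for Snap25 (0.678) and lowest for Itgb5 (0.639). Cort-/- CL replicate 2 was highest for the cell cycle genes Top2a (0.737) and Rrm2 (0.667) and lowest for Ebp (0.733), and Cort-/- CL replicate 3 was highest for Gpr6 (0.639) and Tnfrsf12a (0.637). Among MCAO libraries, Cort-/- replicate 1 was highest for Cavin3 (0.553) and Anxa5 (0.628) and lowest for the synaptic genes Lzts3 (0.546), Gria3 (0.704) and Camk2a (0.586), while Cort+/+ replicate 2 was highest for Slc1a3 (0.597).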

How the results depend on the processing

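The count of 2574 called genes (1504 higher, 1070 lower, 2256 under 2-fold) moved by over 1.5 times in these settings. With a mean of at least 5 RPKM, which tests fewer genes, 1646 were called, 714 of them higher. With no filter 604 were lower, and the interaction had 1 call in place of 0. With Cort+/+ libraries alone (3 against 3) 1 gene was called, 1 higher, 0 lower and 0 under 2-fold, and with Cort-/- libraries alone 941, of which 710 were higher, 231 lower and 609 under 2-fold. In TPM 460 were lower and with voom 467; the cause was not tested. Leaving out 1 library gave 1636 to 2910 calls, 1077 to 1626 higher, 559 to 1293 lower, 1341 to 2555 under 2-fold and 0 to 0 for the interaction, with the low ends of the first 4 without Cort-/- CL replicate 1. Rises were 58.4% of calls as reported, 69.4% with no filter, 43.4% among genes averaging 5 RPKM or more and 71.2% with the replicate block. The median log2 fold change of all genes lay between -0.04 and 0.03 under every scaling. The replicate block, on numbers that libraries share across hemispheres, gave 1419 calls, 408 lower and 1068 under 2-fold. Same-numbered libraries correlated at 0.238 and -0.108 in Cort+/+ and at -0.064, -0.168 and 0.056 in Cort-/- mice. The labels do not say which libraries share a mouse, and so few correlations cannot decide it. Of the 2574 calls, 1934 remained in TPM, 1958 with voom, 1292 with the replicate block and 1601 without Cort-/- CL replicate 1. Of 6071 values of named genes over all settings, 377 were no longer called, 11 became called, 34 uncalled values changed sign and 0 called values did. Low genes had the larger errors: the median standard error was 0.14 in the lowest and 0.05 in the highest of 4 equal sets of genes by mean level.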

Other observations

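Gene families defined by the stem of their symbol were chosen after the data were seen and are set beside the 8.61% called higher and 6.12% called lower over all tested genes. Of 359 tested Zfp genes, which encode zinc finger proteins, 1 was higher (0.28%) and 24 were lower (6.69%) in MCAO tissue, with a median log2 fold change of -0.08. The share of falls was close to that over all genes. Of 69 Ppp genes, subunits of protein phosphatases and their regulators, 4 were higher and 15 lower (21.7%). Of 51 Gpr genes, orphan and other G protein-coupled receptors, 5 were higher and 11 lower (21.6%). Of 46 genes named for a CD antigen, surface proteins of leukocytes and other cells, 23 were higher (50%) and 2 lower, with a median of 0.30. Of 264 Slc transporter genes 30 were higher (11.4%) and 22 lower (8.33%), and of 67 Snord small nucleolar RNA genes 0 were called in either direction by limma, with 2 at an unadjusted p under 0.05 and 0 called by voom.

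Of 36 tested genes of the mitochondrial genome 33 had a negative estimate and 3 were called lower. Over all tested genes 42.5% had a positive estimate and 6.12% were called lower. mt-Atp8, a subunit of ATP synthase, lay at 9.84, 14.1 and 35.7 RPKM (lowest, median and highest) in CL and at 3.16, 6.76 and 11.8 RPKM in MCAO hemispheres (log2 fold change -1.19 ± 0.30, SE, adjusted p = 0.0184 by limma), with overlap. The 3 called genes, mt-Atp6, mt-Atp8 and mt-Nd4l, averaged 13.3, 11.6 and 8.97 RPKM. mt-Co1, far the more abundant at a mean of 8342 RPKM, was not called (-0.19 ± 0.09, adjusted p = 0.172). How reads were divided among genes of the mitochondrial genome was not tested. All reads of these genes took the larger share of RPKM in CL libraries, with a median of 10.7% against 9.37% in MCAO libraries, and the highest share was 17.4% in Cort+/+ CL replicate 3.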
